A study of Homo sapiens with 12 samples.

Results

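The superoxide dismutases and antioxidant enzymes described here are 10 human genes, SOD1, SOD2, SOD3, CAT, GPX1, GPX3, GPX4, PRDX1, NQO1 and HMOX1, taken by gene symbol from an RNA sequencing table of 58735 genes. Because SOD2 has a pair of entries, the 10 genes gave 11 rows, of which 10, 1 for each gene, had a mean of at least 0.5 FPKM (fragments per kilobase of gene, scaled for sequencing depth) over the 12 libraries and were tested among 15856 genes. The libraries came from human neuroblastoma lines, tumour cells of the sympathetic nervous system in culture, with 3 libraries in each of 4 groups: SK-N-SH cells labelled TSPYL5 knockdown, SK-N-SH cells with a control hairpin labelled WT, a second line labelled TSPYL5 knockdown, and the second line with a control hairpin labelled WT. No other treatment was given in any group. Titles name the second line SK_N_BE2 whereas its cell line label reads SH-SY5Y, and it is therefore not named further. Whether replicates came from separate cultures, how many hairpin sequences were used and whether a knockdown line was a clone or a pool is not in the labels, so the p-values rest on the spread among these libraries alone, and that spread may be technical.

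The groups are called by their labels, which the targeted gene followed in the second line and went against in SK-N-SH. TSPYL5, the gene the hairpin targets, averaged 17.7 ± 0.629 FPKM in the SK-N-SH knockdown-labelled libraries against 12.9 ± 0.649 FPKM in those labelled SK-N-SH control, so it was higher under the knockdown label. In the second line it averaged 12.8 ± 0.474 FPKM in the libraries labelled knockdown and 24.7 ± 0.918 FPKM in those labelled control (SD, n = 3 each), so there it was lower under the knockdown label. Across the labelled lines, TSPYL5 had a log2 fold change of -0.46 (adjusted p = 0.000444) in the labelled SK-N-SH knockdown over the second line control, and of -0.01 (adjusted p = 0.880) in the labelled second line knockdown over the SK-N-SH control. MYCN, an oncogene amplified in some neuroblastomas, averaged 1028 FPKM in the SK-N-SH knockdown-labelled libraries and 1040 FPKM in those labelled second line control. It had 6 reads in all 3 libraries labelled SK-N-SH control and 0 reads in those labelled second line knockdown. Pearson's r of log2(FPKM + 1) across the genes tested (genes are no independent replicates) was 0.986 to 0.987 when a library labelled SK-N-SH knockdown was set against a control of the second line, and 0.960 to 0.975 when a library labelled second line knockdown was set against a control of SK-N-SH, against 0.692 to 0.724 between knockdown and control inside either labelled line. Summed over 9 noradrenergic neuroblast markers, levels ran from 1196 to 1286 FPKM in the SK-N-SH knockdown-labelled libraries, 83.8 to 97.1 in those labelled SK-N-SH control, 70.5 to 86.6 in those labelled second line knockdown and 1348 to 1397 in those labelled second line control. TH had 0 reads in the labelled SK-N-SH control and second line knockdown. Still, 7 of the 9 markers averaged at least 1 FPKM in the labelled SK-N-SH control and 4 in the labelled second line knockdown, against all 9 in the other groups. Summed over 9 mesenchymal markers, levels ran from 146 to 152 FPKM under the SK-N-SH knockdown label, 1259 to 1518 under the SK-N-SH control label, 915 to 1047 under the second line knockdown label and 150 to 165 under the second line control label. Of these 9, 5 averaged at least 1 FPKM in the labelled SK-N-SH knockdown and 6 in the labelled second line control, against 8 in each of the other groups. Summed over 6 epithelial markers, levels came to 21.7 to 31.0 FPKM in the labelled SK-N-SH control or second line knockdown and to at most 2.08 FPKM elsewhere. The 6 Schwann cell markers summed to at most 2.31 FPKM and the 6 blood and endothelial markers to at most 1.41 FPKM in any library, with FOXD3 and CD3E at 0 reads throughout. Whether labels or columns were exchanged between groups cannot be settled from the sources used here, and an exchange would change every comparison of knockdown with control. Each such comparison below moves together with the marker differences above, and their part in the results was not tested.

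Superoxide, a by-product of respiration and a product of NADPH oxidases, is turned into hydrogen peroxide by superoxide dismutases. Their cytosolic, mitochondrial and secreted forms are encoded by SOD1, SOD2 and SOD3. Hydrogen peroxide is then removed by catalase (CAT) in peroxisomes, by glutathione peroxidases and by peroxiredoxins such as PRDX1. GPX1 is the main cytosolic glutathione peroxidase, GPX3 is a secreted form, and GPX4 reduces lipid peroxides in membranes and thereby holds back ferroptosis, a form of cell death to which mesenchymal tumour cells are known to be sensitive. NQO1, which reduces quinones, and HMOX1, which degrades haem, are widely used as read-outs of NRF2, the transcription factor that binds antioxidant response elements.

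RefSeq promoter entries (GRCh38.p14, 250 bases before to 50 after a start) were found for 7 of the 10 genes, 12 entries in all. SOD1, PRDX1 and HMOX1 had no entry and were not searched. Stretches with no annotated exon are printed for SOD3 and GPX4, which were both highest in the same pair of groups, and for CAT, which was highest in the other pair. They lie at chr4:24795323-24795462 for SOD3, inside an intron of the longer annotated gene, at chr19:1103744-1103925 for GPX4 and at chr11:34438684-34438924 for CAT, all on the plus strand, and are read 5′ to 3′.
SOD3: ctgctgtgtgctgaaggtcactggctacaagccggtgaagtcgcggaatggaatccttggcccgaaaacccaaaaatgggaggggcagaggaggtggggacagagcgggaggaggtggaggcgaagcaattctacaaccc
GPX4: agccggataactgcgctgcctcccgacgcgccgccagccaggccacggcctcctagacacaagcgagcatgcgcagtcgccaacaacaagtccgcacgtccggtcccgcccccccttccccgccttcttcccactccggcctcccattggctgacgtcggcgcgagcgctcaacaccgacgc
CAT: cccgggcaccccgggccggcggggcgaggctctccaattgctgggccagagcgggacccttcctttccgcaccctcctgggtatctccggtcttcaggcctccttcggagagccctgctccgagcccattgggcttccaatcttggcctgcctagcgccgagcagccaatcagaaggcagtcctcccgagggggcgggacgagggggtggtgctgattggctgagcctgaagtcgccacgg
GC content was 58.6% in the SOD3 stretch, 69.8% in the GPX4 stretch and 68.5% in the CAT stretch, with 6, 23 and 17 CG dinucleotides. The core of the antioxidant response element, TGACNNNGC on either strand, was in 0 of the 12 entries and in 13.3% of all 35116 promoters of this length, which says only that these letters are not in these windows. An E-box, CACGTG, which was added to the search after the data had been seen, was in 1 of the 12 entries and in 7.26% of all promoters. It lies in the GPX1 entry at position -24 before the RefSeq start, and the 26 bases around it at chr3:49358362-49358387 on the minus strand are shown with the E-box in capitals. These bases lie inside GPX1 as the table annotates it, downstream of its annotated start, which is further upstream than the RefSeq start.
GPX1: ctgcctgtgcCACGTGacccgccgcc

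The superoxide dismutases differed most between groups through SOD3. SOD3 (ENSG00000109610, chr4:24789912-24800842 of GRCh38, plus strand) had 0.0534, 0 and 0 FPKM in the SK-N-SH knockdown-labelled libraries, which is 2 reads in all, against 102, 94.3 and 86.0 FPKM in those labelled SK-N-SH control. For the second line the values were 248, 215 and 198 FPKM in the libraries labelled knockdown against 0.0275, 0.0550 and 0.0284 FPKM, 4 reads in all, in those labelled control. The gene was thus read at a high level under the control label in SK-N-SH and under the knockdown label in the second line, and the groups did not overlap in either line. By reads, SOD3 was 5074-fold lower in the labelled SK-N-SH knockdown than in the control (95% counting interval 1404 to 41903) and 5957-fold higher in the labelled second line knockdown than in the control (2326 to 21865). Fewer cells that make a transcript and less of it per cell cannot be told apart in these bulk libraries, here or in any result below. On the log2(FPKM + 1) scale limma gave SK-N-SH a log2 fold change of -6.54 (SE 0.08, adjusted p = 3.31e-14). It gave the second line 7.73 (SE 0.08, adjusted p = 8.85e-15). These fitted sizes depend on the pseudocount, and with 0.1 in place of 1 they were -9.67 and 10.65.

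SOD1 (ENSG00000142168, chr21:31659622-31668931, plus strand) was read at a high level in every library. It had 96.6, 99.4 and 104 FPKM in the SK-N-SH knockdown-labelled libraries against 81.6, 73.4 and 76.6 FPKM in the control, a log2 fold change of 0.37 (SE 0.05, adjusted p = 6.06e-05). The second line gave 94.5, 91.1 and 95.6 FPKM in the libraries labelled knockdown against 98.3, 109 and 105 FPKM in the control, a log2 fold change of -0.15 (SE 0.05, adjusted p = 0.0251). The highest and lowest group means differed 1.35-fold, so SOD1 varied far less than SOD3. The fall in the second line did not pass the threshold without its labelled knockdown replicate 2 (adjusted p = 0.0789) or without its control replicate 2 or 3 (0.0982 and 0.0675).

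SOD2 (ENSG00000112096, chr6:159669057-159745186, minus strand) had 3.80, 4.12 and 4.16 FPKM in the SK-N-SH knockdown-labelled libraries against 3.01, 3.07 and 2.79 FPKM in the control (log2 fold change 0.34, SE 0.05, adjusted p = 6.60e-05). Second line values were 3.38, 3.71 and 3.55 FPKM in the libraries labelled knockdown against 4.41, 4.32 and 4.16 FPKM in the control (log2 fold change -0.22, SE 0.05, adjusted p = 0.00191). SOD2 therefore moved in the same directions as SOD1, with groups that did not overlap in either line. Its FPKM is divided by 16493 exonic bases, so its low level beside SOD1 depends on that annotated length. The other SOD2 entry, ENSG00000285441 (chr6:159679119-159762529), had at most 1 read in any library. It shares 845 exonic bases and 643 of the 1044 coding bases of the first entry on the same strand, and reads in shared bases may have been left out by the counting. WTAP, which overlaps SOD2 on the other strand by 298 exonic bases, averaged 12.9 FPKM in the SK-N-SH knockdown-labelled libraries, 9.10 in the SK-N-SH control, 9.21 in the labelled second line knockdown and 13.5 in its control. Since no source used here says if the counting was stranded, reads of the shared bases cannot be assigned to either gene with certainty.

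**Figure D1:**
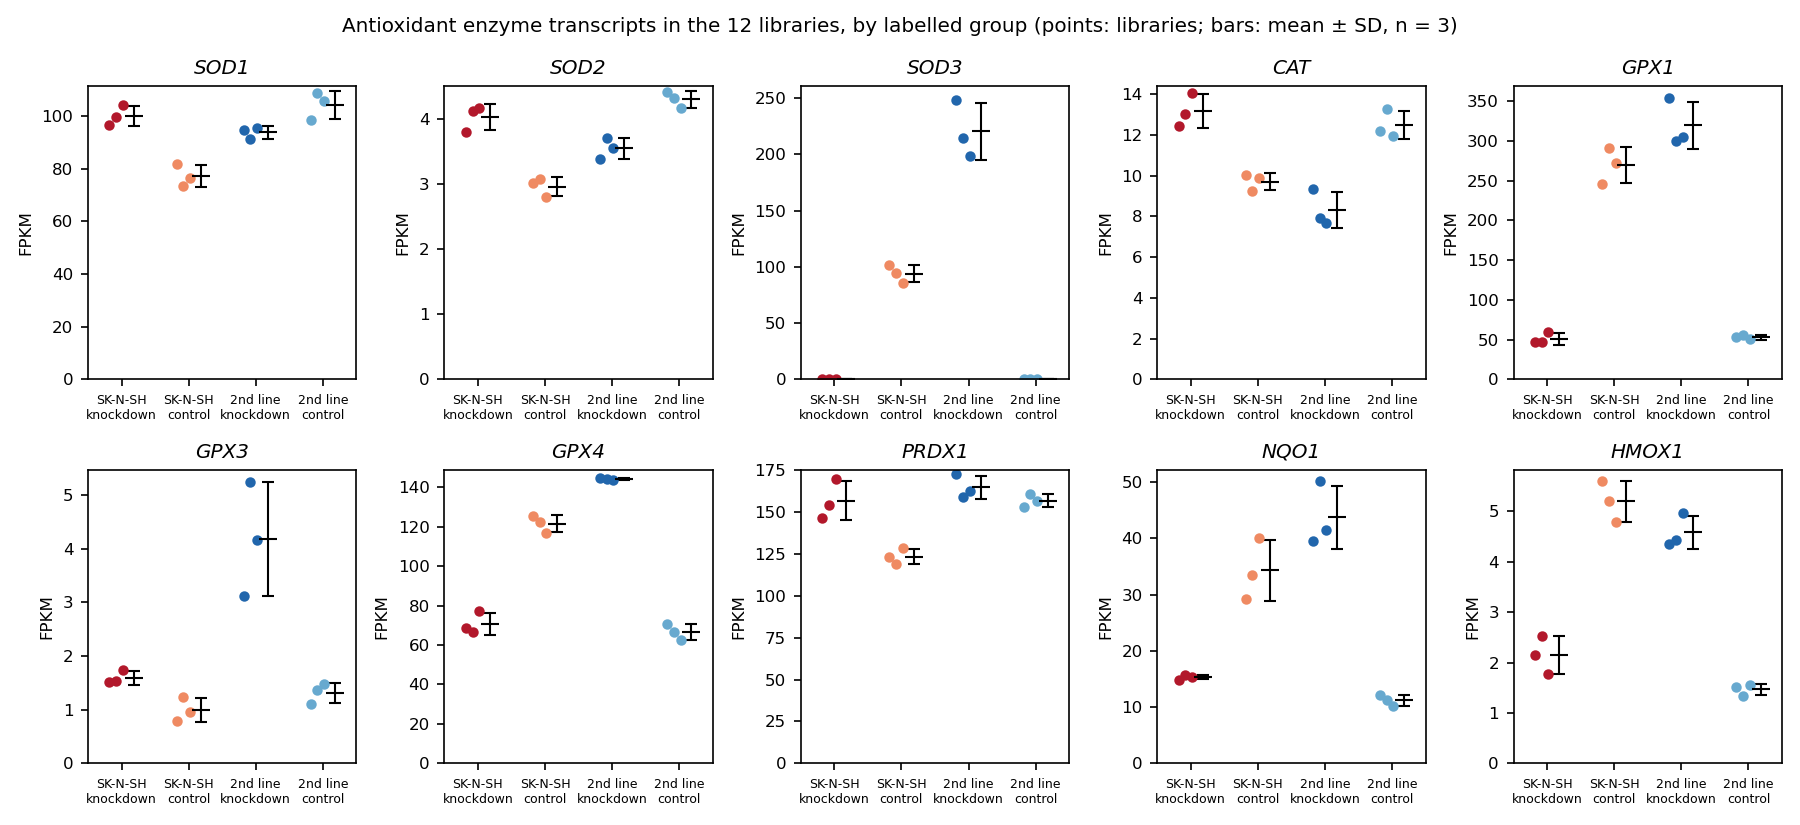
FPKM of each of the 10 genes in the 12 libraries by labelled group, with the mean and SD of 3 libraries beside the points and each panel on its own scale from 0. SOD3 stands near 0 in the libraries of the labelled SK-N-SH knockdown and of the second line control and between 86.0 and 248 FPKM in the others, while PRDX1 stays between 119 and 172 FPKM throughout.

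Taken as a share of the summed FPKM of the 3 dismutases, SOD1 made up 96.1% ± 0.0811 in the SK-N-SH knockdown-labelled libraries against 44.3% ± 1.73 in the control (SD, n = 3 each). In the second line SOD1 made up 29.6% ± 2.43 in the libraries labelled knockdown against 96.0% ± 0.277 in the control. SOD3 made up 0.0177% in the labelled SK-N-SH knockdown against 54.0% in its control, and 69.3% in the labelled second line knockdown against 0.0338% in its control. In the labelled SK-N-SH knockdown and in the second line control, nearly all of the remainder beside SOD1 was SOD2, which stayed between 0.978% and 4.30% in all 12 libraries. The summed level was 104 ± 3.88 FPKM in the labelled SK-N-SH knockdown against 174 ± 10.9 in its control, and 318 ± 25.4 in the labelled second line knockdown against 108 ± 5.30 in its control. These shares and sums depend on the annotated lengths, 2019 bases for SOD1 and 16493 for SOD2. By reads, SOD2 had 3363 against 10222 for SOD1 in the labelled SK-N-SH knockdown, so its small share in FPKM is not its share of reads.

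Between knockdown and control by label, catalase moved in the same directions as SOD1 and SOD2 and opposite to SOD3. CAT (ENSG00000121691, chr11:34438925-34472062, plus strand) had 12.5, 13.02 and 14.1 FPKM in the SK-N-SH knockdown-labelled libraries against 10.03, 9.25 and 9.87 FPKM in the control, a log2 fold change of 0.40 (SE 0.07, adjusted p = 0.000284). In the second line it had 9.34, 7.91 and 7.68 FPKM in the libraries labelled knockdown against 12.2, 13.3 and 11.97 FPKM in the control, a log2 fold change of -0.54 (SE 0.07, adjusted p = 2.70e-05). The groups did not overlap in either line, and mean FPKM was 1.36-fold higher under the knockdown label in SK-N-SH but 1.503-fold lower under it in the second line.

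GPX1 had the second widest range of the 10 genes, after SOD3. GPX1 (ENSG00000233276, chr3:49357171-49358600, minus strand) had 46.5, 47.4 and 59.7 FPKM in the SK-N-SH knockdown-labelled libraries against 246, 291 and 273 FPKM in the control. The second line gave 354, 300 and 305 FPKM in the libraries labelled knockdown against 52.8, 56.2 and 50.3 FPKM in the control. It was thus high in the same groups as SOD3, 5.27-fold lower in the labelled SK-N-SH knockdown than in its control and 6.02-fold higher in the labelled second line knockdown than in its control. The log2 fold changes were -2.38 (SE 0.10, adjusted p = 1.22e-09) and 2.57 (SE 0.10, adjusted p = 5.82e-10). The annotation of the table calls GPX1 a polymorphic pseudogene, although the gene encodes the classical enzyme, and 2 pseudogenes are named after it, with which it could share reads. Pseudogenes are also named after SOD1 (3), SOD2 (1) and PRDX1 (1), so the same limit holds for those genes.

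GPX4 (ENSG00000167468, chr19:1103926-1106791, plus strand) was high in the same pair of groups as GPX1, with smaller folds. It had 68.5, 66.7 and 77.2 FPKM in the SK-N-SH knockdown-labelled libraries against 125, 122 and 117 FPKM in the control, 1.72-fold lower (log2 fold change -0.77, SE 0.06, adjusted p = 2.88e-07). Second line values were 145, 144 and 144 FPKM in the libraries labelled knockdown against 70.7, 66.6 and 62.7 FPKM in the control, 2.16-fold higher (log2 fold change 1.10, SE 0.06, adjusted p = 1.12e-08). As shares of the summed FPKM of GPX1, GPX3 and GPX4, GPX4 made up 57.4% in the labelled SK-N-SH knockdown against 31.0% in its control, and 30.9% in the labelled second line knockdown against 55.1% in its control. GPX1 made up 41.3% in the labelled SK-N-SH knockdown against 68.7% in its control and 68.2% in the labelled second line knockdown against 43.9% in its control, so that GPX4 led in the labelled SK-N-SH knockdown and in the second line control and GPX1 led in the others. The summed level was 124 ± 13.02 FPKM in the labelled SK-N-SH knockdown against 392 ± 21.0 in its control, and 468 ± 28.9 in the labelled second line knockdown against 121 ± 5.78 in its control.

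GPX3 (ENSG00000211445, chr5:151020438-151028993, plus strand) was low, and of the 10 genes it alone passed as higher under the knockdown label in both lines. It had 1.51, 1.53 and 1.73 FPKM in the SK-N-SH knockdown-labelled libraries against 0.780, 1.24 and 0.964 FPKM in the control (log2 fold change 0.38, SE 0.14, adjusted p = 0.0227). For the second line the values were 3.12, 5.24 and 4.16 FPKM in the libraries labelled knockdown against 1.11, 1.37 and 1.47 FPKM in the control, 3.17-fold higher (log2 fold change 1.14, SE 0.14, adjusted p = 9.78e-06). These values rest on 46 to 280 reads per library. The rise in SK-N-SH lost its call without the filter on low values (adjusted p = 0.0505), and without labelled knockdown replicate 3 (0.0700) or control replicate 1 or 3 (0.0858 and 0.0530).

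**Figure D2:**
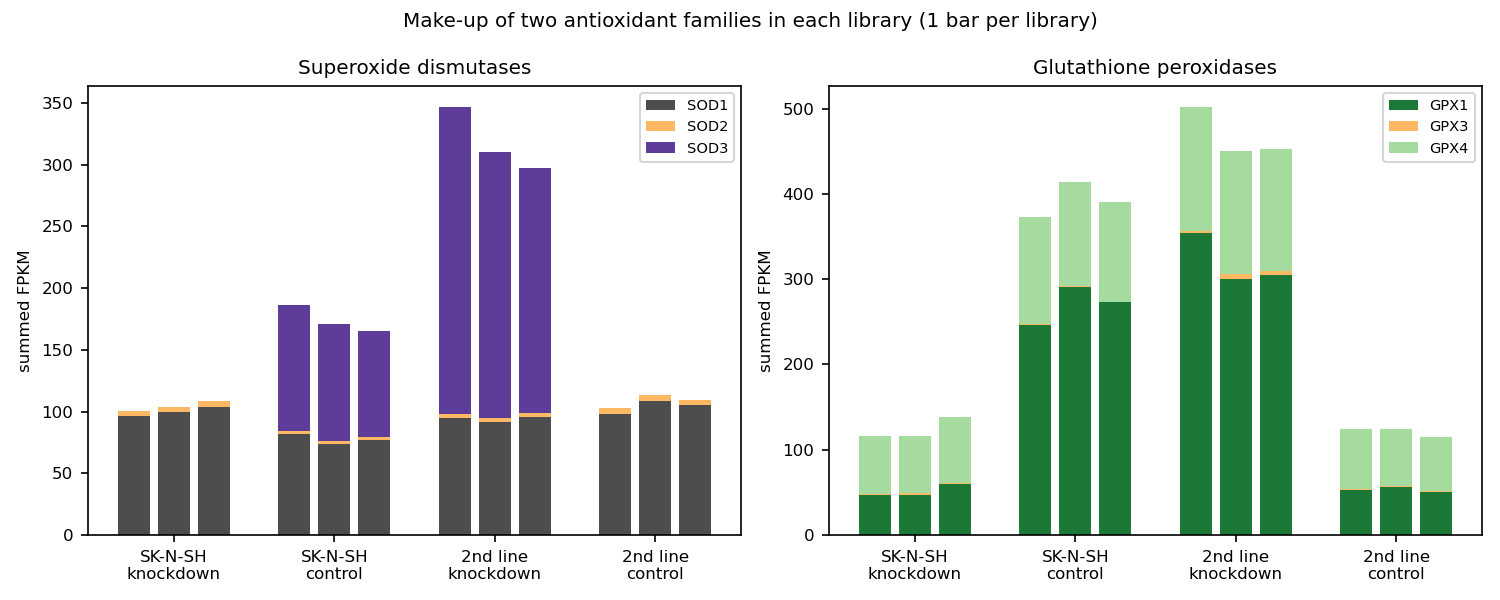
Summed FPKM of the dismutases (left) and of 3 glutathione peroxidases (right) in each of the 12 libraries, stacked by gene. In the labelled SK-N-SH knockdown and in the second line control nearly all of the dismutase bar is SOD1, and in the other groups SOD3 makes up 54.0% and 69.3% on average. The small part of SOD2 depends on its annotated length of 16493 bases, by which its FPKM is divided.

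PRDX1 (ENSG00000117450, chr1:45511036-45523047, minus strand) encodes a peroxiredoxin that is among the most abundant cytosolic peroxide scavengers. Its highest and lowest group means differed 1.33-fold, the least of the 10 genes, against 1.35-fold for SOD1. By the SD of log2(FPKM + 1) over the 12 libraries SOD2 varied least, with 0.173 against 0.178 for PRDX1. PRDX1 had 147, 154 and 169 FPKM in the SK-N-SH knockdown-labelled libraries against 123, 119 and 128 FPKM in the control, 1.27-fold higher (log2 fold change 0.34, SE 0.06, adjusted p = 0.000239). In the second line it had 172, 159 and 162 FPKM in the libraries labelled knockdown against 153, 161 and 156 FPKM in the control. Those groups overlapped, and the log2 fold change was 0.07 (95% interval -0.06 to 0.20, adjusted p = 0.294), which turned to -0.091 when values were scaled to library totals (adjusted p = 0.174). MMACHC overlaps 24.9% of the exonic bases of PRDX1 on the other strand and averaged 4.95 FPKM in the labelled SK-N-SH knockdown against 2.26 in its control, and 2.37 in the labelled second line knockdown against 4.88 in its control.

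The genes often read as NRF2 targets, NQO1 and HMOX1, moved with GPX1 and GPX4. NQO1 (ENSG00000181019, chr16:69706996-69726951, minus strand) had 14.9, 15.6 and 15.4 FPKM in the SK-N-SH knockdown-labelled libraries against 29.3, 33.5 and 40.1 FPKM in the control, 2.24-fold lower (log2 fold change -1.10, SE 0.11, adjusted p = 2.52e-06). Second line values were 39.4, 50.1 and 41.5 FPKM in the libraries labelled knockdown against 12.2, 11.2 and 10.2 FPKM in the control, 3.90-fold higher (log2 fold change 1.87, SE 0.11, adjusted p = 2.17e-08). HMOX1 (ENSG00000100292, chr22:35380361-35394214, plus strand) had 2.15, 2.53 and 1.77 FPKM in the SK-N-SH knockdown-labelled libraries against 5.60, 5.21 and 4.78 FPKM in the control, 2.42-fold lower (log2 fold change -0.98, SE 0.09, adjusted p = 8.10e-07). For the second line the values were 4.36, 4.43 and 4.96 FPKM in the libraries labelled knockdown against 1.51, 1.34 and 1.56 FPKM in the control, 3.12-fold higher (log2 fold change 1.18, SE 0.09, adjusted p = 1.51e-07). Neither gene overlapped between knockdown and control in either line. HMOX1 rests on 55 to 251 reads per library. AC092115.2, an antisense gene over part of NQO1, had 0 reads in all 12 libraries.

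Over the 10 genes, 10 passed the threshold of an adjusted p under 0.05 between the labelled SK-N-SH knockdown and its control, 5 higher and 5 lower, where 79.8% of all 15856 genes passed, 40.7% higher and 39% lower. In the second line 9 passed, 6 higher and 3 lower, where 80% of all genes passed, 39.9% higher and 40.2% lower. A count of passing genes so near the share among all genes says nothing particular about these 10. The median log2 fold change of the 10 genes was -0.22 against 0.02 over all genes in SK-N-SH, and 1.12 against -0.02 over all genes in the second line. Groups did not overlap for 10 of the 10 genes in SK-N-SH and for 9 in the second line, where 81.5% and 81.4% of all genes did not overlap.

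**Figure D3:**
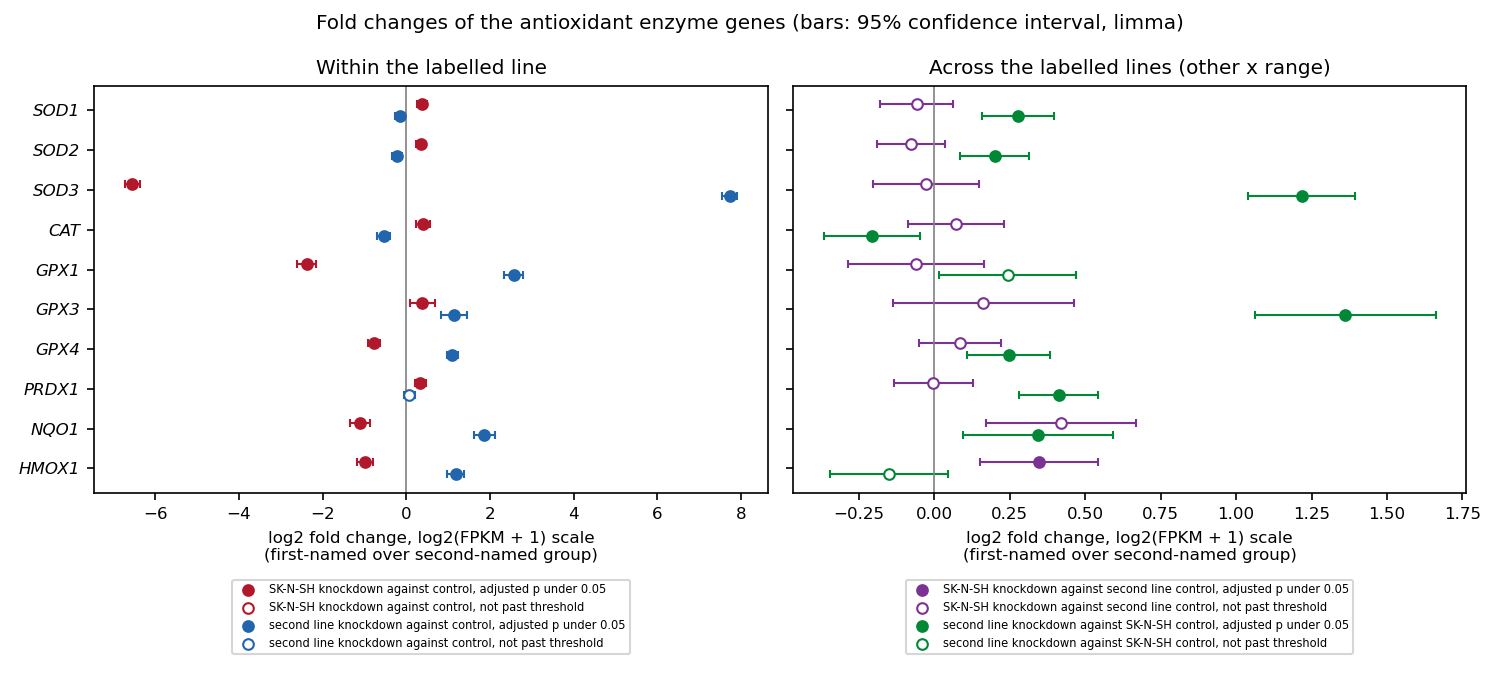
Log2 fold changes of the 10 genes on the log2(FPKM + 1) scale with 95% confidence intervals, for knockdown against control by label in each line (left) and for groups compared across the labelled lines (right, on a narrower scale). SOD3, GPX1, GPX4, NQO1 and HMOX1 lie below 0 in SK-N-SH and above 0 in the second line. Between the labelled SK-N-SH knockdown and the second line control 9 of the 10 genes do not pass, where only 5.39% of all genes tested passed.

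The knockdown effect under the labels differed between the lines for each of the 10 genes by the test of the difference itself, where 84.9% of all genes differed, 41.8% higher and 43.1% lower in the second line. On the log2 scale the effect in the second line minus that in SK-N-SH was 14.28 for SOD3, 4.95 for GPX1, 2.97 for NQO1, 2.16 for HMOX1, 1.88 for GPX4 and 0.76 for GPX3. It was -0.94 for CAT, -0.57 for SOD2, -0.52 for SOD1 and -0.27 for PRDX1. Every such direction follows the labels, which TSPYL5 did not follow in SK-N-SH. This difference also sets the pairs of groups that were alike across the labelled lines against each other. Any gene that differs between those pairs therefore passes as differing between the lines, whatever the knockdown did.

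The groups were also compared across the labelled lines, with the same libraries as above. Between the SK-N-SH knockdown-labelled libraries and those labelled second line control, 5.39% of all genes passed the threshold, and of the 10 genes HMOX1 passed, with 2.15 ± 0.379 FPKM in the labelled SK-N-SH knockdown against 1.47 ± 0.114 FPKM in the second line control, 1.47-fold higher (log2 fold change 0.35, SE 0.09, adjusted p = 0.0461). That call was lost under 15 of 20 other settings, with adjusted p values up to 0.157. NQO1 was 15.3 ± 0.372 FPKM in the labelled SK-N-SH knockdown against 11.2 ± 0.985 FPKM in the second line control, without overlap, but missed the threshold (log2 fold change 0.42, 95% interval 0.17 to 0.67, adjusted p = 0.0582), and it passed under 7 of 20 other settings. For SOD1 the log2 difference was -0.06 with a 95% interval from -0.18 to 0.06, for GPX4 it was 0.08 with an interval from -0.05 to 0.22, and for GPX1 it was -0.06 with an interval from -0.29 to 0.17. SOD3 had 2 reads in the labelled SK-N-SH knockdown against 4 reads in the second line control, too few for a fold. Groups did not overlap for 4 of the 10 genes (SOD2, GPX3, NQO1 and HMOX1), where 27% of all genes did not overlap.

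Between the libraries labelled second line knockdown and those labelled SK-N-SH control, 44.1% of all genes passed the threshold, 26.9% higher and 17.2% lower, and 8 of the 10 genes passed, 7 higher and 1 lower. With values scaled to library totals, 3083 genes rose and 3663 fell in place of 4261 and 2735. SOD3 was 221 ± 25.5 FPKM in the labelled second line knockdown against 94.1 ± 7.92 FPKM in the SK-N-SH control, 2.34-fold higher (log2 fold change 1.22, SE 0.08, adjusted p = 2.14e-06), and GPX3 was 4.17 ± 1.06 FPKM in the labelled second line knockdown against 0.994 ± 0.230 FPKM in the SK-N-SH control, 4.20-fold higher (log2 fold change 1.36, SE 0.14, adjusted p = 3.00e-05). PRDX1 was 165 ± 6.92 FPKM in the labelled second line knockdown against 123 ± 4.61 FPKM in the SK-N-SH control, 1.33-fold higher (log2 fold change 0.41, adjusted p = 0.000271). SOD1, SOD2, GPX4 and NQO1 also passed as higher, with log2 fold changes of 0.28, 0.20, 0.25 and 0.35, and CAT as lower, with -0.21. GPX1 (0.24, 95% interval 0.02 to 0.47, adjusted p = 0.0771) and HMOX1 (-0.15, 95% interval -0.34 to 0.04, adjusted p = 0.196) did not pass. Groups did not overlap for 7 of the 10 genes, all but CAT, NQO1 and HMOX1, where 51% of all genes did not overlap. The calls of CAT, NQO1 and SOD2 were lost under 8, 6 and 2 of 20 other settings, and GPX1 passed under 2 of 19.

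The rank of the 10 genes by FPKM changed with the group. PRDX1 came first and SOD1 next in the labelled SK-N-SH knockdown and in the second line control, where SOD3 was last. GPX1 came first in libraries under the SK-N-SH control label or second line knockdown, where SOD3 ranked 4 and 2. From highest to lowest group mean, SOD3 and GPX1 ran from labelled second line knockdown through SK-N-SH control and second line control to SK-N-SH knockdown, with the last pair overlapping. GPX4 and NQO1 had the same upper pair with the lower pair exchanged, though the lower pair overlapped for GPX4 and the upper pair for NQO1. HMOX1 was highest in the SK-N-SH control, overlapping with the second line knockdown. CAT was highest in the labelled SK-N-SH knockdown, overlapping with the second line control. SOD1 and SOD2 were highest in the second line control, which for SOD1 overlapped with the labelled SK-N-SH knockdown.

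Other genes of the same pathways were taken as 11 lists with 175 genes in all, of which 137 were tested. In SK-N-SH 48 of the 137 rose and 71 fell under the knockdown label while 18 did not pass, with a median log2 fold change of -0.31 against 0.02 over all genes, of which 79.8% passed, 40.7% higher and 39% lower. In the second line 81 rose, 44 fell and 12 did not pass, with a median of 0.48 against -0.02 over all genes, of which 80% passed, 39.9% higher and 40.2% lower. Between the labelled SK-N-SH knockdown and the second line control 3 rose, 3 fell and 131 did not pass, where 5.39% of all genes passed. Between the labelled second line knockdown and the SK-N-SH control 60 rose, 16 fell and 61 did not pass, where 44.1% of all genes passed, 26.9% higher and 17.2% lower. Genes named below are the passing genes with the largest log2 fold change on the log2(FPKM + 1) scale in each list and comparison of knockdown with control.

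**Figure D4:**
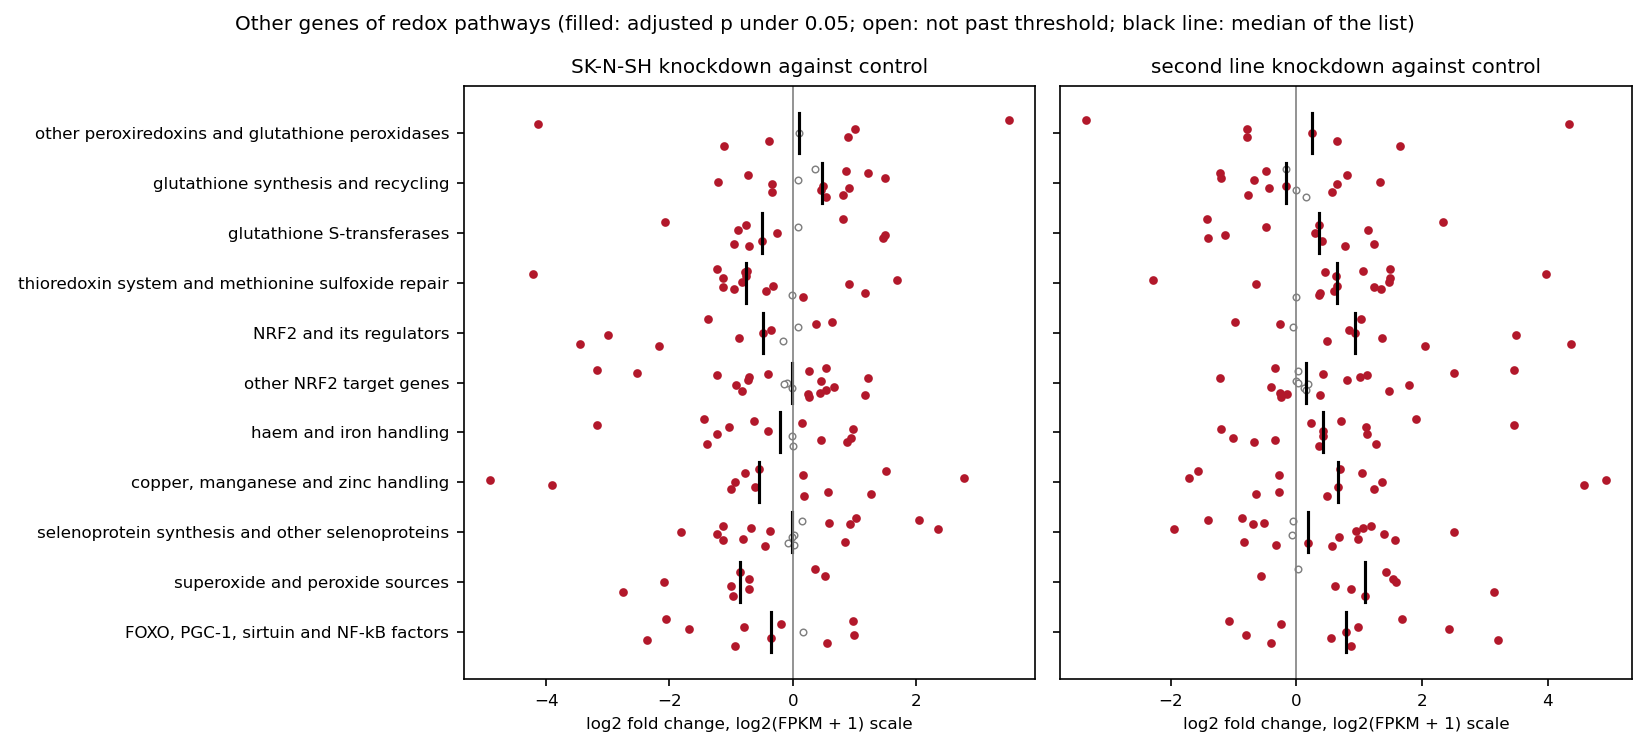
Log2 fold changes on the log2(FPKM + 1) scale of the tested genes of 11 redox lists, with 1 point per gene, for knockdown against control by label in SK-N-SH (left) and in the second line (right). The median of the superoxide and peroxide sources is -0.86 in SK-N-SH and 1.09 in the second line, and each list holds genes on both sides of 0.

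Among the other peroxiredoxins and glutathione peroxidases, 3 rose, 3 fell and 1 did not pass in SK-N-SH, and 4 rose and 3 fell in the second line. Of all genes tested, 40.7% rose and 39% fell in SK-N-SH, and 39.9% rose and 40.2% fell in the second line. The endoplasmic reticulum enzymes GPX7 and GPX8 went opposite ways. GPX8 averaged 0.0307 FPKM (6 reads) in the labelled SK-N-SH knockdown against 17.1 FPKM in its control, and 19.4 FPKM in the labelled second line knockdown against 0 reads in its control, at least 1271-fold higher when the 3 control libraries are given 3 reads together. GPX7 averaged 27.4 FPKM in the labelled SK-N-SH knockdown against 1.502 in its control, and 1.58 in the labelled second line knockdown against 25.1 in its control. The libraries that read GPX8 thus read GPX7 at a low level, and the reverse.

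The 14 tested genes of glutathione synthesis and recycling gave 8 higher, 4 lower and 2 not passing in SK-N-SH and 4 higher, 7 lower and 3 not passing in the second line, beside 40.7% higher and 39% lower of all genes in SK-N-SH and 39.9% higher and 40.2% lower in the second line. GCLC, the catalytic subunit of the rate-limiting enzyme of glutathione synthesis, averaged 6.80 FPKM in the labelled SK-N-SH knockdown against 2.36 in its control, and 2.12 in the labelled second line knockdown against 6.26 in its control. GGCT, which breaks down gamma-glutamyl peptides, averaged 32.2 FPKM in the labelled SK-N-SH knockdown against 10.8 in its control and 13.7 in the labelled second line knockdown against 32.8 in its control. The glutaredoxin gene GLRX averaged 0.851 FPKM in the labelled SK-N-SH knockdown against 3.27 in its control and 4.09 in the labelled second line knockdown against 1.014 in its control. Glutathione S-transferases, which conjugate glutathione to other molecules, gave 3 higher, 7 lower and 1 not passing in SK-N-SH and 7 higher and 4 lower in the second line. GSTK1 averaged 8.63 FPKM in the labelled SK-N-SH knockdown against 39.5 in its control and 41.0 in the labelled second line knockdown against 7.30 in its control. GSTP1 averaged 419 FPKM in the labelled SK-N-SH knockdown against 148 in its control and 158 in the labelled second line knockdown against 349 in its control. GSTA4 averaged 23.1 FPKM in the labelled SK-N-SH knockdown against 12.7 in its control and 8.99 in the labelled second line knockdown against 25.9 in its control. Several of these genes have close relatives with which reads could be shared.

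In the thioredoxin and methionine sulfoxide repair list, 4 rose, 11 fell and 1 did not pass in SK-N-SH, and 13 rose, 2 fell and 1 did not pass in the second line. Over all genes tested, 40.7% rose and 39% fell in SK-N-SH, and 39.9% rose and 40.2% fell in the second line. MSRB3, a methionine sulfoxide reductase, averaged 0.0474 FPKM in the labelled SK-N-SH knockdown against 18.6 in its control, and 15.2 in the labelled second line knockdown against 0.0185 in its control. SESN3, a sestrin, moved opposite to it, with 11.2 FPKM in the labelled SK-N-SH knockdown against 2.79 in its control and 1.22 in the labelled second line knockdown against 9.78 in its control. The superoxide and peroxide sources gave 2 higher and 7 lower of 9 in SK-N-SH and 7 higher, 1 lower and 1 not passing in the second line. RAC2, a GTPase that activates NADPH oxidases, averaged 0.655 FPKM in the labelled SK-N-SH knockdown against 10.2 in its control and 14.3 in the labelled second line knockdown against 0.738 in its control. NOXA1, an activator of NOX1, averaged 0.934 FPKM in the labelled SK-N-SH knockdown against 7.29 in its control and 3.92 in the labelled second line knockdown against 0.611 in its control.

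For NRF2 and its regulators, 2 rose, 7 fell and 2 did not pass in SK-N-SH, and 8 rose, 2 fell and 1 did not pass in the second line. Shares over all genes tested were 40.7% higher and 39% lower in SK-N-SH, and 39.9% higher and 40.2% lower in the second line. NFE2L3, a relative of NRF2, averaged 0.303 FPKM in the labelled SK-N-SH knockdown against 13.2 in its control and 29.9 in the labelled second line knockdown against 0.478 in its control. MAFK, a small MAF protein that pairs with NRF2, averaged 0.862 FPKM in the labelled SK-N-SH knockdown against 14.1 in its control and 16.9 in the labelled second line knockdown against 0.590 in its control. The other NRF2 target genes did not share a direction: 10 rose, 8 fell and 3 did not pass in SK-N-SH, with a median log2 fold change of -0.01, and 9 rose, 6 fell and 6 did not pass in the second line, with a median of 0.15. Of these, BLVRB, a biliverdin reductase, averaged 0.638 FPKM in the labelled SK-N-SH knockdown against 13.7 in its control and 15.2 in the labelled second line knockdown against 0.468 in its control. The epoxide hydrolase gene EPHX1 averaged 4.92 FPKM in the labelled SK-N-SH knockdown against 33.2 in its control and 36.6 in the labelled second line knockdown against 5.58 in its control. GCLC, given above and also on this list of targets, went the other way, with log2 fold changes of 1.22 in SK-N-SH and -1.22 in the second line. In the FOXO, PGC-1, sirtuin and NF-kB list, 3 rose, 7 fell and 1 did not pass in SK-N-SH, and 7 rose and 4 fell in the second line. RELB averaged 0.532 FPKM in the labelled SK-N-SH knockdown against 6.88 in its control and 13.1 in the labelled second line knockdown against 0.514 in its control. NFKB2 averaged 2.88 FPKM in the labelled SK-N-SH knockdown against 11.4 in its control and 16.4 in the labelled second line knockdown against 2.19 in its control. FOXO1 averaged 0.138 FPKM in the labelled SK-N-SH knockdown against 3.73 in its control and 2.61 in the labelled second line knockdown against 0.132 in its control.

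Metals and selenium, which several of these enzymes need, were covered by 3 lists. All genes tested gave 40.7% higher and 39% lower in SK-N-SH, and 39.9% higher and 40.2% lower in the second line. Copper, manganese and zinc handling gave 6 higher and 7 lower of 13 in SK-N-SH, and 8 higher and 5 lower in the second line. MT2A and MT1E encode metallothioneins, which bind zinc and copper. MT2A averaged 9.63 FPKM in the labelled SK-N-SH knockdown against 158 in its control, and 176 in the labelled second line knockdown against 6.42 in its control. MT1E averaged 0.151 FPKM in the labelled SK-N-SH knockdown against 33.9 in its control and 32.0 in the labelled second line knockdown against 0.0759 in its control, though reads of the closely similar MT1 genes could be shared. Haem and iron handling gave 5 higher, 7 lower and 2 not passing in SK-N-SH and 10 higher and 4 lower in the second line. ACO1, the cytosolic aconitase that is also an iron regulatory protein, averaged 3.01 FPKM in the labelled SK-N-SH knockdown against 9.91 in its control and 12.6 in the labelled second line knockdown against 2.64 in its control. Selenoprotein synthesis and other selenoproteins, relevant because GPX1, GPX3 and GPX4 contain selenocysteine, gave 6 higher, 8 lower and 5 not passing in SK-N-SH, and 10 higher, 7 lower and 2 not passing in the second line. LRP8, a receptor for selenoprotein P, averaged 8.68 FPKM in the labelled SK-N-SH knockdown against 1.34 in its control and 2.97 in the labelled second line knockdown against 9.46 in its control. SELENOI averaged 21.6 FPKM in the labelled SK-N-SH knockdown against 3.43 in its control and 5.25 in the labelled second line knockdown against 23.0 in its control. SELENOM averaged 3.67 FPKM in the labelled SK-N-SH knockdown against 15.4 in its control and 23.1 in the labelled second line knockdown against 3.24 in its control. LRP8 and SELENOI thus ran opposite to GPX1 and GPX4, whereas SELENOM moved in the same directions as GPX1 and GPX4.

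As a description, the genes whose log2(FPKM + 1) was most alike over the 12 libraries were found for the 3 genes that varied most. For SOD3 they were MAGEA3 and MAGEA6, near-identical genes of the cancer-testis family whose reads cannot be told apart with certainty, and CCDC85A, each with a Pearson r of 0.9996. For GPX1 they were SSR2 (0.9994), TM7SF3 (0.9985) and NENF (0.9984), and for NQO1 they included WIPI1 (0.9931) and HEXA (0.9912). As the libraries fall into a pair of sets, such values are common: r was over 0.95 with SOD3 for 2960 genes, with GPX1 for 2849 and with NQO1 for 1694.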

How the data were processed

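RNA was sequenced in 12 libraries of 4 groups. Per the labels' protocols, libraries were made with a NEBNext Ultra kit. The submitters' processing notes list HISAT2 (2.0.5), featureCounts (1.5.0-p3) and the build mm10. All 58735 genes of the table are human, however, and start and end where GENCODE release 29 puts them on GRCh38, the build of every coordinate here. The authors deposited FPKM per gene and library. FPKM times gene length gave whole reads for 100% of values (tolerance 0.05 reads), 15425460 to 19249018 per library, and the authors' FPKM had been scaled by median-of-ratios size factors of these reads, not by library totals. Floors of 3 reads and read ratios (exact 95% intervals) cover counting error only. Replicates differed by more than sampling noise, and 0 columns belonged to no sample.

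Log2(FPKM + 1) went into limma (3.58.1, under R 4.3.3) for genes with a mean of at least 0.5 FPKM (15856 genes), in 1 model of 4 group means with trended empirical Bayes variances. The fit was also run on simulated data in which few genes differed, unlike these data, so that run does not vouch for the calls here. P-values are two-sided and adjusted by Benjamini-Hochberg over all genes tested, with a threshold of 0.05. Folds are ratios of mean FPKM unless given as log2, and log2 values understate the change of low genes. Alternatives were a pseudocount of 0.1, no filter, a minimum mean of 2 FPKM, scaling to library totals, voom on the recovered reads, protein-coding genes only, only the groups compared, the replicate block, and leaving out each library.

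The 10 genes, the lists and the markers were chosen with earlier results of these data known. The text names the 10 genes, TSPYL5 and MYCN, up to 2 passing genes of each list with the largest absolute log2 fold change per comparison of knockdown with control, and the 3 genes most like each of the 3 most variable members; some items this rule or the marker lists would name are not reported here. Promoter sequences are from RefSeq (GRCh38.p14).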

Additional observations from a re-analysis of the deposited data

Results flagged for a closer look

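The effect of the knockdown label differed between the lines for each of the 10 antioxidant genes, by limma's test of the difference. On the log2(FPKM + 1) scale, second line minus SK-N-SH was 14.28 for SOD3 (adjusted p = 3.72e-16), 4.95 for GPX1 (adjusted p = 2.03e-11), 2.97 for NQO1 (adjusted p = 4.67e-09), 2.16 for HMOX1 (adjusted p = 9.34e-09), 1.88 for GPX4 (adjusted p = 1.31e-09) and 0.76 for GPX3 (adjusted p = 0.00305). It was -0.94 for CAT (adjusted p = 3.27e-06), -0.57 for SOD2 (adjusted p = 1.52e-05), -0.52 for SOD1 (adjusted p = 5.34e-05) and -0.27 for PRDX1 (adjusted p = 0.0105). GPX3 rose under the knockdown label in both lines, and the others changed direction except PRDX1, which did not pass in the second line. Among all genes tested, 84.9% differed. The effect also differed for 25 of the 25 named pathway genes, but these were chosen for large fold changes within the lines, from which the difference is computed, so that count is fixed largely by the choice and is no result about them. TSPYL5 went against the knockdown label in SK-N-SH, with 17.7 FPKM under the knockdown label against 12.9 FPKM under the control label, so these directions are those of the labels.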

How the results depend on the processing

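Of 985 refitted fold changes of the 10 genes, 933 kept their direction and side of the threshold, 38 lost and 9 gained a call, and 5 changed sign. PRDX1 in the second line turned to -0.091 with scaling to library totals, which moved the median of all genes by -0.13 in the second line, by 0.04 in SK-N-SH and by -0.17 in the difference between lines. Where the labelled SK-N-SH knockdown was set against the second line control, leaving out each library in turn gave PRDX1 -0.061 to 0.043 and GPX1 -0.17 to 0.0038 on the log2 scale, with 0 to 2 of the 10 genes and 474 to 991 of all genes passing in place of 1 and 854. SK-N-SH knockdown replicate 1 gave the upper ends for both genes, and PRDX1 was also above 0 without replicate 2 of either group. There 0 of the 10 genes passed with no filter, with library totals or with the replicate block, and 2 passed with a minimum of 2 FPKM or protein-coding genes only. Where the labelled second line knockdown was set against the SK-N-SH control, 5 of the 10 genes passed with only the groups compared, and leaving out libraries left 6 to 9. Leaving out libraries left 9 to 10 genes in SK-N-SH, 8 to 9 in the second line and 10 in the difference. GPX1 is left out of the protein-coding alternative by its annotated biotype. The cause of these changes was not tested.

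Replicate numbers did not pair the samples: deviations of same-numbered libraries from their group means correlated at -0.075 to 0.102. With the replicate block 12569 genes passed in SK-N-SH, 12619 in the second line, 692 and 6752 across the labelled lines, and 13393 in the difference. Across the lines HMOX1 (adjusted p = 0.0860) and CAT (adjusted p = 0.0606) lost their calls under it. Low reads limit GPX3, HMOX1 and the nearly unread SOD3 groups.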
